A study of Mus musculus with 60 samples.

Results

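Semaphorins, plexins, neuropilins, Eph receptors and ephrins were followed in the hippocampus of R6/1 mice, a transgenic model of Huntington's disease, and of wild-type (WT) mice. The genes were taken by symbol pattern from the expression table (Sema3 to Sema7, the plexins, Nrp1 and Nrp2, Epha and Ephb, Efna and Efnb), which gave 53 of the 24508 symbols listed. They are 20 semaphorins, 9 plexins, 2 neuropilins, 9 EphA receptors, 5 EphB receptors, 5 ephrin-A and 3 ephrin-B genes. The pattern reads symbols alone.

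RNA-seq was made from hippocampal tissue of 30-week-old mice on a mixed CBA and C57BL/6 background, with 9 WT and 9 R6/1 libraries described as independent biological replicates. R6/1 mice carry a transgene for the start of human huntingtin with a lengthened glutamine repeat, added to the mouse's own Htt alleles, so the model expresses a fragment of the disease protein. Both groups share the strain background, the age and frozen hippocampus as starting tissue. The sites of lamin B1, which lines the nuclear envelope, were mapped by ChIP-seq in both genotypes at that age. Each of the 3 replicates there pooled 5 mice, and 1 domain list per genotype is used below.

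Semaphorins are secreted, membrane-spanning or lipid-anchored ligands that steer growing axons, and plexins are their receptors. Secreted class 3 semaphorins mostly need a neuropilin as a co-receptor beside a plexin. Eph receptors are receptor tyrosine kinases that bind ephrins on neighbouring cells: ephrin-A ligands sit on a lipid anchor, ephrin-B ligands span the membrane, and both can signal back into the cell that carries them. In the adult hippocampus these families are known for roles at dendritic spines, in synaptic plasticity and in contacts between neurons and astrocytes.

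Levels are RPKM, reads per kilobase of gene, scaled for depth, as the authors deposited them, so levels of different genes can be compared. A change is a log2 fold change of RPKM + 0.5, R6/1 minus WT, from limma across all genes that average 0.5 RPKM or more. A gene is called higher or lower where its p-value, adjusted over all 14446 genes tested by the Benjamini-Hochberg method, is under 0.05. Of the 53 genes, 50 passed this filter. The genes left out are Epha1, Epha2 and Efna4, an EphA receptor pair and an ephrin-A, which had 2 to 33 reads per library and means of at most 0.43 RPKM in either genotype.

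R6/1 hippocampus held less RNA of 14 guidance receptors and 10 ligands, and more RNA of 4 ligands. Of the 50 genes tested, 24 were lower in R6/1, 4 were higher and 22 were not called. Lower calls made up 23.5% and higher calls 24.8% of all 14446 genes tested, and 48.3% of them were called in either direction, against 56.0% of the guidance genes. The median log2 fold change was -0.13 over the guidance genes and 0.00 over all genes tested. In a bulk tissue sample, fewer cells of a type and less RNA per cell cannot be told apart.

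The changes of at least 0.5 on the log2 scale lay mostly on the lower side. A total of 10 guidance genes were called lower by at least 0.5, against 6.28% of all genes tested, and 1 was called higher by at least 0.5, against 2.06%. In 8 genes every R6/1 library lay below every WT library, which holds for 6.38% of all genes tested. No guidance gene had every R6/1 library above every WT library, which holds for 5.50% of all genes tested. These 8 genes are Epha4, Epha6, Epha7, Epha10, Sema4a, Sema5a, Sema7a and Plxna4.

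Receptors and ligands differed in their counts. Of the 23 receptors and co-receptors tested, 14 were lower (60.9%) and 0 were higher, with a median log2 fold change of -0.27. At an unadjusted p under 0.05, limma also gave 0 higher, and the authors' deposited table, which holds all 25 receptors, gave 1 (Plxnb3) at an unadjusted and 0 at an adjusted p under 0.05. Of the 27 ligands tested, 10 were lower (37.0%) and 4 were higher (14.8%), with a median of -0.08. Of all genes tested, 23.5% were lower and 24.8% higher. The difference between receptors and ligands was not tested.

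**Figure D1:**
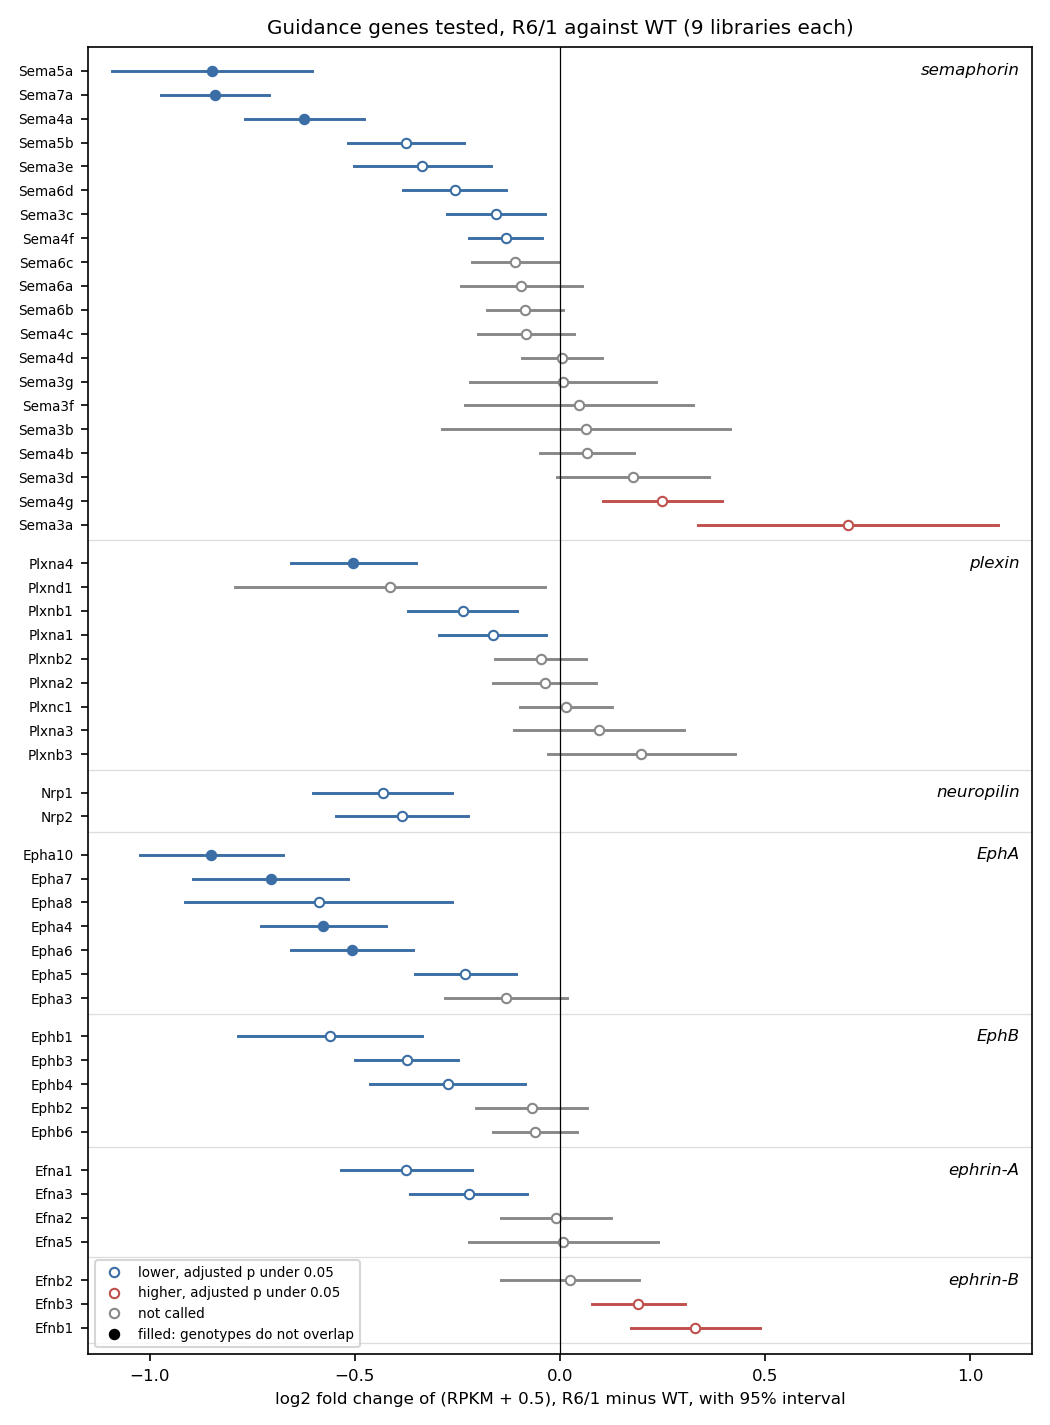
Log2 fold change of RPKM + 0.5 (R6/1 minus WT) for the 50 guidance genes tested, with the 95% interval of limma's fit as a line, grouped by family; colour gives the call and filled points mark genes whose libraries do not overlap between genotypes. All 12 Eph receptors lie left of 0 under the deposited scaling, and the 3 ephrin-B ligands lie right of 0, with the interval of Efnb2 crossing it. Among the alternative fits described at the end, Ephb6 reached 0.01 and Ephb2 reached 0.03.

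Scaling bears on the balance of calls over all genes. The deposited scaling gave 3586 genes higher and 3394 lower, so 51.4% of calls were higher. Rescaling each library to the same sum of RPKM gave 4678 higher and 2695 lower (63.4% of calls higher), and scaling the recovered reads by each library's own total gave 5152 and 2548 (66.9%). The guidance genes gave 5 higher and 21 lower under the first of these and 6 higher and 20 lower under the second.

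The libraries themselves had 12299434 to 16736544 reads on genes. Libraries differed in choroid plexus RNA: the summed RPKM of 6 choroid plexus markers ran from 25.6 to 1075 in WT and from 38.8 to 1743 in R6/1. A total of 7 libraries (WT replicates 1, 3, 5 and 6, R6/1 replicates 2, 3 and 4) held 555 RPKM or more of Ttr, a choroid plexus transcript, and results that depend on them are given without them below. Without these libraries, 4 guidance genes were higher and 22 lower, of which 3 and 20 were among the calls over all libraries. That fit compares 5 WT with 6 R6/1 libraries, fewer than the main fit. It does not make the genotypes equal in Ttr. The WT libraries left held 19.0 to 112 RPKM (median 33.9) and the R6/1 libraries left 33.4 to 491 RPKM (median 199). Xist, the transcript that silences 1 X chromosome in female cells, was between 0.0037 and 0.0365 RPKM in all 18 libraries.

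The start regions of 5 genes that the results below turn on are shown first: Epha4 and Epha7 as EphA receptors that were lower, Sema7a as the lower semaphorin of the highest WT level, and Sema3a with its co-receptor Nrp1 as a ligand that was higher beside a receptor that was lower. Each is the 250 bases before a RefSeq transcript start (table on GRCm38.p6), matched to mm9 (NCBIM37), read 5′ to 3′ on the gene's strand, and none of the 5 overlaps an annotated exon on mm9. Capitals mark GGGCGG, the GC box that SP1 factors bind, on either strand, and the E-box CAGCTG.
Epha4, chr1:77511664-77511913, minus strand: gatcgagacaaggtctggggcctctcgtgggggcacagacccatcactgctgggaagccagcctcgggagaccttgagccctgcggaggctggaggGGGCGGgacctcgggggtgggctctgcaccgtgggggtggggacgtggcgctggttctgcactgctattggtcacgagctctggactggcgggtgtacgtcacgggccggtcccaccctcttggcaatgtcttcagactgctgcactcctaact
Epha7, chr4:28740031-28740280, plus strand: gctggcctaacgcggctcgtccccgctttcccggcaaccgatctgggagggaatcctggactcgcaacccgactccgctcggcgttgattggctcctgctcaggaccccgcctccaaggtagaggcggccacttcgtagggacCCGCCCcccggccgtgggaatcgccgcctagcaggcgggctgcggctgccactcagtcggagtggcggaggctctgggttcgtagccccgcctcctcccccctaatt
Sema7a, chr9:57787669-57787918, plus strand: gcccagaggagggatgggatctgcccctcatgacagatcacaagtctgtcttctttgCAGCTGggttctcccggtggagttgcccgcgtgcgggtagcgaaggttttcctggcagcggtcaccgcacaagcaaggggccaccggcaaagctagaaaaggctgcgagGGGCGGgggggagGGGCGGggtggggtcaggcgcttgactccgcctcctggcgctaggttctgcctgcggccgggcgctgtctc
Nrp1, chr8:130882723-130882972, plus strand: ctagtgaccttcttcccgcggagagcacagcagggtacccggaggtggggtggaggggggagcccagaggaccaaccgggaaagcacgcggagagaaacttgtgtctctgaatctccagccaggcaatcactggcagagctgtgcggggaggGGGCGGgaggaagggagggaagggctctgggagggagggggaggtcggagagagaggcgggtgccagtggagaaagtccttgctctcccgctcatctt
Sema3a, chr5:13396534-13396783, plus strand: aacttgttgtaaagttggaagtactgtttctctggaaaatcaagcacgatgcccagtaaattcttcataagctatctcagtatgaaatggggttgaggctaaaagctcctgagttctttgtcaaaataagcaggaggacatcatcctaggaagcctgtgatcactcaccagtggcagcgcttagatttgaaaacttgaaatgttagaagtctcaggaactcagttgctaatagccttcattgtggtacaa

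The Epha4 window holds 1 GC box, whose first base is 154 bases before the start, and the Epha7 window holds 1 at 107 bases, on the opposite strand. Sema7a has GC boxes at 84 and 71 bases and a CAGCTG at 193 bases. Nrp1 has a GC box at 98 bases. The Sema3a window differs from the other 4 in where it lies: its RefSeq start is 271191 bases inside the gene as GENCODE annotates it, at an internal transcript start, whereas the other windows end within 1 base of the GENCODE start. It holds 40.8% G and C and 2 CpG, against 66.0% and 14 CpG in Epha4 and 69.2% and 25 CpG in Epha7, and none of the motifs searched is in its letters.

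Over the family, 61 RefSeq start regions of 47 guidance genes were read. GGGCGG on either strand was in 46 of the 61 (75.4%), against 32.7% of 32851 start regions of the same length in the genome. The genome-wide set includes many genes without expression here: among 13983 start regions of tested genes the share was 56.1%, and among the 58 of tested guidance genes it was 75.9%. Between tested guidance genes and all tested genes, CAGCTG was in 15.5% and 12.3% of regions and CAGATG in 6.90% and 10.2%. Against all start regions, which were the only comparison made for the other motifs, TATAAA, the TATA box, was in 1 guidance region (1.64% against 12.4%), and TGACGTCA, the cAMP response element, was in 1 as well (1.64% against 1.55%). GCGTGGGCG, which EGR factors bind and which overlaps GC box letters, was in 2 (3.28% against 0.536%), those of Efna3 and Plxna2. Median G and C content was 64.4% in the guidance regions and 59.6% in those of tested genes. A match in these letters is a description and not a bound site.

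Most EphA receptors were lower in R6/1. Of 7 tested, 6 were lower (85.7%, against 23.5% of all genes tested), 0 were higher and 1 (Epha3) was not called. The median log2 fold change was -0.58. The summed level of all 9 EphA genes was 140 to 197 RPKM in WT libraries and 98.1 to 128 RPKM in R6/1 libraries, so the genotypes did not overlap, and the means differed by -32.0%.

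Epha4 carried most of this sum. EphA4 binds both ephrin classes and is known in hippocampus for ephrin-A3 contacts between spines and astrocytes. Its mean was the highest of all 53 genes in both genotypes. In WT it was 71.5, 84.0 and 105 RPKM (lowest, median, highest of 9 libraries) and in R6/1 it was 50.5, 55.5 and 66.9 RPKM. The lowest WT library lay 4.65 RPKM above the highest R6/1 library. The log2 fold change was -0.58 ± 0.07 (SE, n = 9 and 9, adjusted p = 2.27e-06 in limma). Epha4 made up 52.9% ± 2.87 (SD, n = 9) of the EphA sum in WT and 51.9% ± 1.34 (SD, n = 9) in R6/1, so its share moved by less than the spread between libraries.

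Epha10 and Epha7 had the largest decreases among the Eph receptors on the log2 scale of RPKM + 0.5. That scale understates the change of scarce genes, and by the ratio of means Epha8 was lowest (0.481, against 0.517 for Epha10 and 0.599 for Epha7). Epha10, a receptor whose kinase domain lacks catalytic activity, was at 4.62, 6.55 and 7.48 RPKM in WT and 2.74, 3.27 and 3.78 RPKM in R6/1. Its log2 fold change was -0.85 ± 0.08 (SE, adjusted p = 8.55e-08 in limma), with every R6/1 library below every WT library. In WT, the 4 libraries with high Ttr (4.62 to 6.07 RPKM) lay below the other 5 (6.55 to 7.48 RPKM). Epha10 was also called lower without the 7 libraries highest in Ttr. Epha7, a repulsive receptor in axon mapping, was at 18.0, 21.2 and 31.3 RPKM in WT and 11.9, 13.2 and 16.6 RPKM in R6/1. The 2 genotypes were separate for Epha7 too, with a log2 fold change of -0.71 ± 0.09 (SE, adjusted p = 2.43e-06 in limma). Its 2 highest WT libraries were replicates 4 and 6.

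Epha6 was lower by less but as evenly. It was at 20.1, 23.9 and 27.2 RPKM in WT and 13.4, 16.3 and 19.8 RPKM in R6/1, a log2 fold change of -0.51 ± 0.07 (SE, adjusted p = 7.95e-06 in limma). The gap between the genotypes was 0.37 RPKM. Both Epha10 and Epha6 overlap an exon of a gene on the opposite strand (1700125G02Rik and Gm9017). The library kit keeps strand, but whether the counting used it is not given in the sources used here.

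Epha8 and Epha5 completed the lower EphA genes. Epha8 was scarce and uneven in WT: 0.40, 1.09 and 2.11 RPKM, against 0.44, 0.56 and 0.71 RPKM in R6/1. WT replicate 1 was the lowest of all 18 libraries and WT replicates 5 and 6 were the highest, so the groups overlapped, and the log2 fold change was -0.59 ± 0.16 (SE, adjusted p = 0.0040 in limma). Epha5, a receptor of ephrin-A ligands in forebrain mapping, averaged 17.6 ± 1.78 RPKM across WT and 14.9 ± 1.27 RPKM across R6/1 (SD over 9 libraries each), with 5 of 9 R6/1 libraries below the lowest WT library. Its log2 fold change was -0.23 (limma adjusted p = 0.0030). Epha3 was at 3.31 ± 0.32 RPKM across WT and 2.98 ± 0.40 RPKM across R6/1 (SD over 9 libraries each), a log2 fold change of -0.13 with a 95% interval from -0.28 to 0.02.

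**Figure D2:**
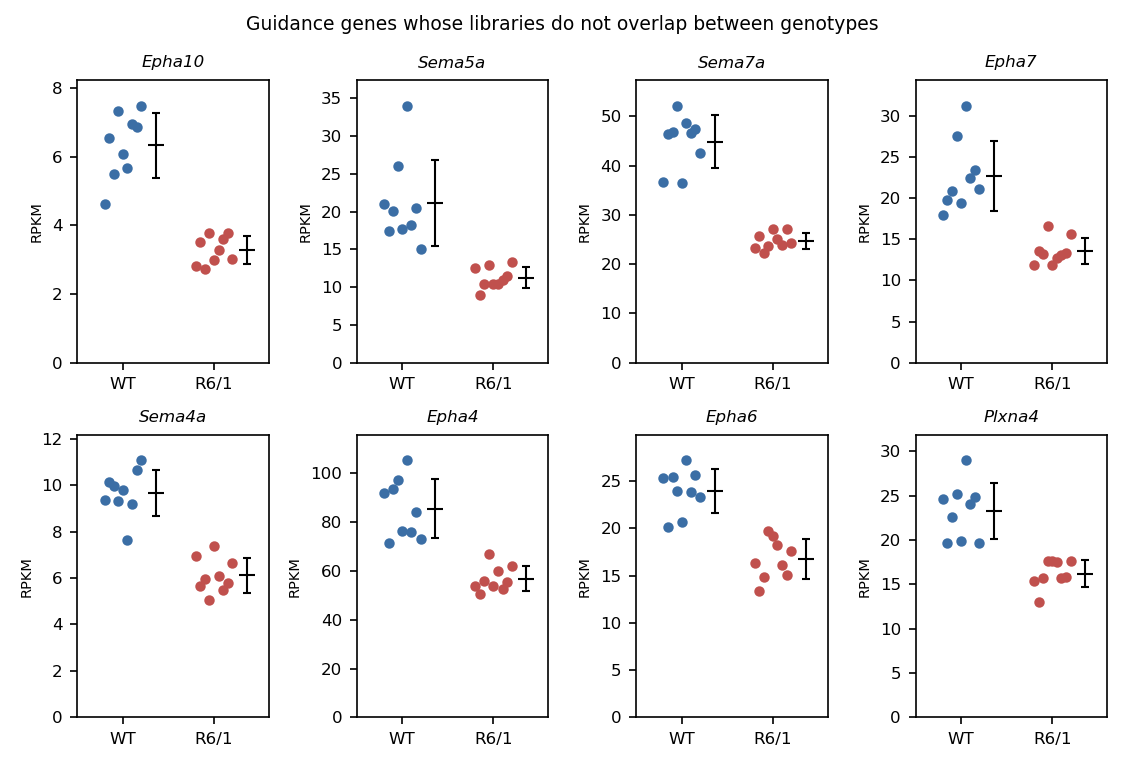
RPKM in each library (points, 9 per genotype) of the 8 guidance genes whose genotypes do not overlap, with the mean and SD as a black bar; each vertical axis starts at 0. All 9 R6/1 libraries lie below all 9 WT libraries in each panel, and the gap is widest in RPKM for Sema7a (9.31 RPKM) and narrowest for Sema4a (0.26 RPKM).

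EphB receptors were lower in part. Of 5 tested, 3 were lower (60.0%, against 23.5% of all genes tested) and 0 were higher. Ephb2 and Ephb6 were not called, and the median was -0.27. Ephb1, which acts in axon crossing and at synapses, fell by 0.56 ± 0.11 on the log2 scale (SE, adjusted p = 2.20e-04 in limma), from 10.2 ± 1.51 to 6.81 ± 1.48 RPKM (SD over 9 libraries each). All but 1 R6/1 library lay below the lowest WT library. Ephb3 fell by 0.37 (limma adjusted p = 3.77e-05) and Ephb4, best known from vessels, fell by 0.27 (limma adjusted p = 0.016). Ephb1 and Ephb4 also overlap exons of opposite-strand genes (Gm17708 and Zan).

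The most abundant EphB gene did not pass the test. Ephb6, a receptor without kinase activity, was at 19.0, 21.7 and 24.1 RPKM in WT and 18.0, 20.9 and 22.0 RPKM in R6/1, a log2 fold change of -0.06 with a 95% interval from -0.16 to 0.04 (0.01 with each library scaled by its own total of reads). Its share of the EphB sum was 49.8% ± 2.63 across WT and 56.2% ± 2.93 across R6/1 (SD over 9 libraries each). Ephb2, which couples to NMDA receptors at spines, was at 3.18 ± 0.32 and 3.00 ± 0.30 RPKM (SD over 9 libraries each), a log2 fold change of -0.07 with an interval from -0.20 to 0.06. Among the alternative fits, the log2 fold change of Ephb2 ran from -0.11 to 0.03.

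The summed ephrins did not fall with the summed Eph receptors, and the means of the 2 ephrin classes went opposite ways. The 14 Eph genes summed to 204 ± 18.3 RPKM across WT and 146 ± 8.86 RPKM across R6/1 (SD over 9 libraries each), whereas the 8 ephrins summed to 96.8 ± 5.41 and 101 ± 8.07 RPKM. The Eph sums did not overlap between genotypes (187 to 240 and 137 to 163 RPKM) and the ephrin sums did (91.9 to 106 and 91.1 to 114 RPKM). Ephrin-A genes alone summed to 34.0 ± 2.34 RPKM across WT and 29.5 ± 2.47 RPKM across R6/1 (SD over 9 libraries each). Ephrin-B genes summed to 62.8 ± 3.39 and 71.1 ± 6.05 RPKM, of which Efnb3 held 48.4 and 55.5 RPKM on average. The contrast between the Eph and ephrin sums was not tested.

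Among ephrin-A ligands, 2 of 4 tested were lower (50.0%, against 23.5% of all genes tested) and 0 were higher. Efna3, the ephrin known from astrocytes around hippocampal spines, was at 22.1, 25.3 and 31.4 RPKM in WT and 19.0, 22.6 and 25.2 RPKM in R6/1. The groups overlapped, and its log2 fold change was -0.22 ± 0.07 (SE, adjusted p = 0.010 in limma). Without the 7 libraries highest in Ttr it was -0.13 (limma adjusted p = 0.18). Efna1 fell by 0.37 ± 0.08 (SE, adjusted p = 4.07e-04 in limma), from 2.92 ± 0.42 to 2.12 ± 0.22 RPKM (SD over 9 libraries each). Efna2 and Efna5 were not called, with log2 fold changes of -0.01 and 0.01 and intervals from -0.14 to 0.12 and from -0.22 to 0.24.

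Of the 3 ephrin-B ligands, 2 were higher (66.7%, against 24.8% of all genes tested) and 0 lower. Efnb1 and Efnb3 were higher, and Efnb2, a ligand with roles in vessels and neurons, was not called (log2 fold change 0.02, interval -0.14 to 0.19). Efnb1 was at 3.01, 3.67 and 4.52 RPKM in WT and 3.93, 4.61 and 5.38 RPKM in R6/1. Of the R6/1 libraries, 5 of 9 lay above the highest WT library, and the log2 fold change was 0.33 ± 0.08 (SE, adjusted p = 0.0012 in limma). Efnb3, the ephrin of the highest level and known for signalling at the postsynaptic side and at the spinal midline, was at 44.0, 48.7 and 53.1 RPKM in WT and 49.6, 52.0 and 62.7 RPKM in R6/1. It overlapped more, with 4 of 9 R6/1 libraries above all WT libraries, and the log2 fold change was 0.19 ± 0.05 (SE, adjusted p = 0.0065 in limma).

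**Figure D3:**
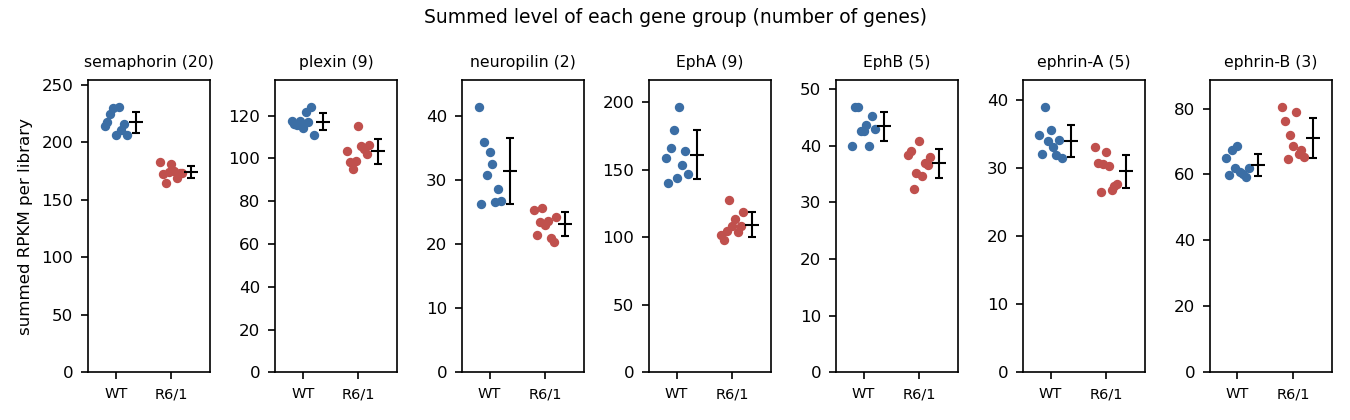
Summed RPKM of all genes of each family in each library (points, 9 per genotype, WT in blue and R6/1 in red), with the mean and SD as a black bar; each vertical axis starts at 0. The R6/1 mean lies furthest below the WT mean for EphA (-32.0%) and neuropilins (-26.5%), and above it for ephrin-B alone (13.2%).

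Semaphorins split by gene more than by class. Of 20 tested, 8 were lower (40.0%), 2 were higher (10.0%) and 10 were not called, with a median of -0.09. The shares over all genes tested were 23.5% lower and 24.8% higher. By class, 2 of 7 class 3 genes were lower and 1 higher, 2 of 6 class 4 genes were lower and 1 higher, both class 5 genes were lower, 1 of 4 class 6 genes was lower, and the class 7 gene was lower.

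The lipid-anchored Sema7a gave the smallest adjusted p of all guidance genes. Semaphorin 7A signals through plexin-C1 and integrins. It was at 36.5, 46.5 and 52.2 RPKM in WT and 22.2, 24.2 and 27.1 RPKM in R6/1. Every R6/1 library lay at least 9.31 RPKM below every WT library, and the log2 fold change was -0.84 ± 0.06 (SE, adjusted p = 1.98e-09 in limma). Sema7a made up 20.6% ± 1.93 of the semaphorin sum in WT and 14.2% ± 0.90 in R6/1 (SD over 9 libraries each). In R6/1 the most abundant semaphorin was Sema6b, at 35.6 ± 1.97 RPKM, itself not called (log2 fold change -0.09, interval -0.18 to 0.01). Plxnc1 was at 9.72 ± 0.95 and 9.79 ± 0.55 RPKM (SD over 9 libraries each), a log2 fold change of 0.01 with an interval from -0.10 to 0.13.

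Both class 5 semaphorins were lower. Semaphorin 5A is a membrane-spanning ligand known to restrain excitatory synapses on dentate granule cells. Sema5a was at 15.1, 20.0 and 34.0 RPKM in WT and 8.96, 10.9 and 13.3 RPKM in R6/1. WT replicate 6 was the highest, the next WT library was at 26.1 RPKM, and the lowest WT library lay above all R6/1 libraries, and the log2 fold change was -0.85 ± 0.12 (SE, adjusted p = 6.06e-06 in limma). Sema5b fell by 0.37 (limma adjusted p = 1.32e-04).

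In class 4, Sema4a, known from immune cells and retina, was at 7.63, 9.79 and 11.1 RPKM in WT and 5.07, 5.97 and 7.36 RPKM in R6/1. The groups were separate by 0.26 RPKM, with a log2 fold change of -0.62 ± 0.07 (SE, adjusted p = 4.62e-07 in limma). Sema4g moved the other way, at 5.17, 5.94 and 7.12 RPKM in WT and 6.44, 7.13 and 8.34 RPKM in R6/1. Here 5 of 9 R6/1 libraries lay above the highest WT library (log2 fold change 0.25 ± 0.07 SE, adjusted p = 0.0058 in limma). Sema4f fell by 0.13 (limma adjusted p = 0.015), with a log2 fold change of -0.09 without the 7 libraries highest in Ttr (limma adjusted p = 0.18). Sema4b, Sema4c and Sema4d, the plexin-B1 ligand, were not called, with log2 fold changes of 0.07, -0.08 and 0.00.

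In class 6 only Sema6d, a plexin-A1 ligand, passed the test and fell by 0.26 (limma adjusted p = 0.0015). Sema6a, Sema6b and Sema6c were not called, with log2 fold changes of -0.09, -0.09 and -0.11. Sema6b was called lower without WT replicate 7, and Sema6c without WT replicate 6 or without the 7 libraries highest in Ttr (-0.16, limma adjusted p = 0.046).

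Sema3a was the guidance gene with the largest increase and also the most uneven one in WT. Semaphorin 3A is the secreted ligand that collapses growth cones through neuropilin-1 and plexin-A receptors. It was at 0.41, 0.84 and 2.41 RPKM in WT and 1.33, 1.72 and 2.41 RPKM in R6/1, from 38 to 264 reads per library. WT replicate 2 was as high as the highest R6/1 library, so the groups overlapped although the medians were apart. The log2 fold change was 0.70 ± 0.18 (SE, adjusted p = 0.0025 in limma). The 4 WT libraries with high Ttr held 0.41 to 0.62 RPKM of Sema3a and the other 5 WT libraries held 0.84 to 2.41 RPKM. In R6/1 the 3 libraries with high Ttr (1.65 to 2.08 RPKM) lay within the range of the other 6 (1.33 to 2.41 RPKM). Without the 7 libraries the log2 fold change was 0.35 (limma adjusted p = 0.17), so the call was lost. The part of choroid plexus tissue or of dissection in this was not tested.

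The other secreted class 3 genes moved less. Sema3e, the ligand that binds plexin-D1 directly, fell by 0.34 ± 0.08 (SE, adjusted p = 0.0017 in limma), from 13.4 ± 2.17 to 10.4 ± 1.05 RPKM (SD over 9 libraries each). Sema3c fell by 0.16 (limma adjusted p = 0.030), and its log2 fold change was -0.11 under equal sums of RPKM (limma adjusted p = 0.14). The call of Sema3c was also lost without any 1 of WT replicates 2, 7 and 9 or R6/1 replicates 2, 5 and 7. Sema3d was not called (log2 fold change 0.18, limma adjusted p = 0.11), but WT replicate 1 was high, and without it the log2 fold change was 0.24 (limma adjusted p = 0.0082). Without the 7 libraries highest in Ttr it was 0.31 (limma adjusted p = 0.0094). With all libraries kept, Sema3d was also called higher under quantile normalization (0.23, limma adjusted p = 0.047). The same held under equal sums of RPKM (0.22, limma adjusted p = 0.034), library weights, and recovered reads scaled by each library's own total. Sema3b, Sema3f and Sema3g were not called, and their 95% intervals ran from -0.29 to 0.42, from -0.23 to 0.32 and from -0.22 to 0.23.

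**Figure D4:**
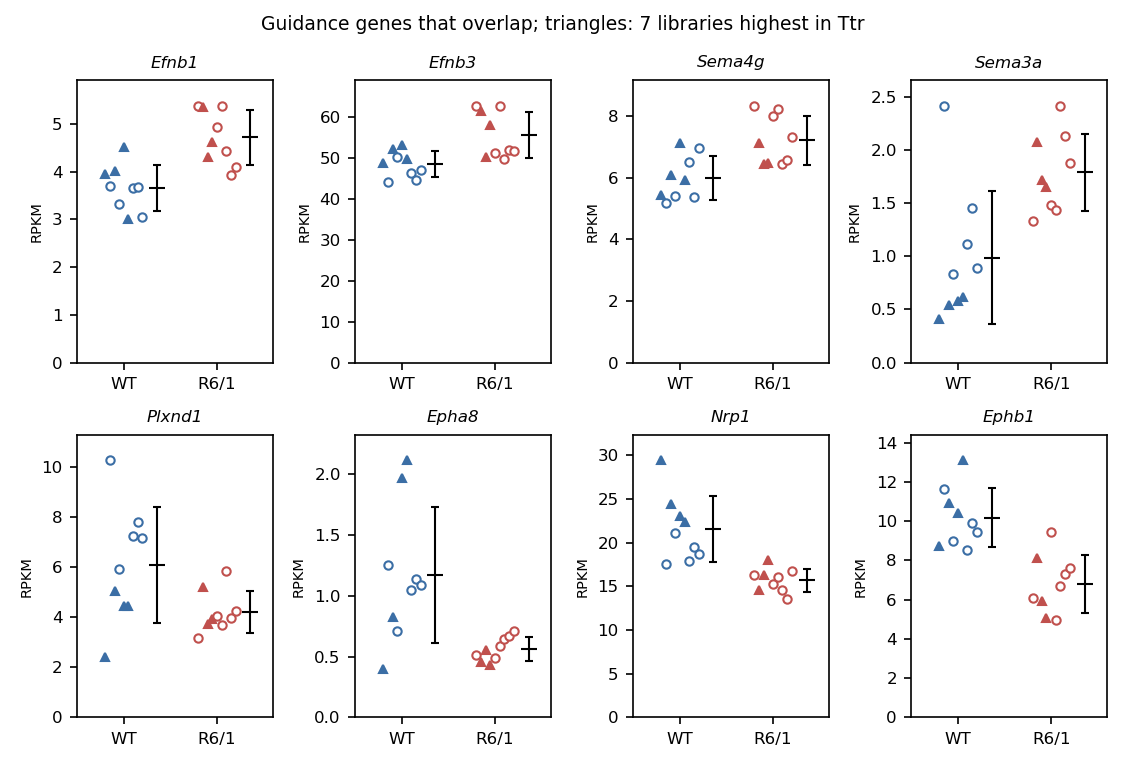
RPKM in each library (points, 9 per genotype) of 8 guidance genes whose genotypes overlap, with the mean and SD as a black bar; triangles are the 7 libraries highest in Ttr and each vertical axis starts at 0. The WT triangles of Sema3a and Plxnd1 all lie below the WT circles, whereas those of Nrp1 all lie above them.

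Both neuropilins were lower. Nrp1, the co-receptor of semaphorin 3A and also a receptor of VEGF, was at 17.6, 21.1 and 29.4 RPKM in WT and 13.6, 16.04 and 18.0 RPKM in R6/1. All but 1 R6/1 library lay below the lowest WT library, and the log2 fold change was -0.43 ± 0.08 (SE, adjusted p = 1.87e-04 in limma). Nrp2, the co-receptor of semaphorin 3F on dentate granule cells, fell by 0.39 ± 0.08 (SE, adjusted p = 3.54e-04 in limma), from 9.94 ± 1.46 to 7.46 ± 0.79 RPKM (SD over 9 libraries each). Nrp1 made up 68.4% ± 1.34 of their sum in WT and 67.8% ± 1.90 in R6/1 (SD over 9 libraries each), which differ by less than the spread between libraries. In WT, the 4 libraries with high Ttr lay above the other 5 in Nrp1 (22.4 to 29.4 against 17.6 to 21.1 RPKM) and in Nrp2. Without the 7 libraries highest in Ttr, both were called lower, where Nrp1 fell by 0.29 (limma adjusted p = 0.0024) and Nrp2 fell by 0.22 (limma adjusted p = 0.046).

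Of 9 plexins tested, 3 were lower (33.3%, against 23.5% of all genes tested), 0 were higher and 6 were not called. Their median log2 fold change was -0.05. Plxna4, which serves semaphorin 3A with neuropilin-1 and class 6 semaphorins on mossy fibres, was at 19.6, 24.1 and 29.0 RPKM in WT and 13.0, 15.9 and 17.6 RPKM in R6/1. The genotypes did not overlap, and the log2 fold change was -0.50 ± 0.07 (SE, adjusted p = 1.13e-05 in limma). It had the highest WT mean of the plexins (23.3 RPKM), close to Plxna1 (23.1 RPKM), and in R6/1 Plxna1 (20.5 RPKM) had the higher mean of the pair. Plxna4 overlaps an exon of Gm13851 on the opposite strand.

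Plxna1 and Plxnb1 fell by little. Plxnb1, the semaphorin 4D receptor, fell by 0.24 (limma adjusted p = 0.0044), with a log2 fold change of -0.19 without the 7 libraries highest in Ttr (limma adjusted p = 0.066). Plxna1 fell by 0.16 (limma adjusted p = 0.036), with a log2 fold change of -0.04 without those libraries (limma adjusted p = 0.63). Plxna1 lost its call in 13 of 32 alternatives, and leaving out any 1 of WT replicates 1, 3, 4, 6 and 8 or R6/1 replicates 2, 3, 7 and 8 was enough. Both genes, like Efna3, overlap an exon of an opposite-strand gene (Gm16896, Gm7628 and Gm15998).

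Plxnd1, the semaphorin 3E receptor, varied widely in WT. It was at 2.40, 5.94 and 10.3 RPKM in WT and 3.15, 3.99 and 5.86 RPKM in R6/1, with WT replicate 1 the lowest and WT replicate 2 the highest of all 18 libraries. The log2 fold change was -0.41 ± 0.18 (SE), not called (limma adjusted p = 0.066). The 4 WT libraries with high Ttr (2.40 to 5.03 RPKM) lay below the other 5 (5.94 to 10.3 RPKM). Without the 7 libraries the log2 fold change was -0.81 (limma adjusted p = 5.83e-04), and it was -0.55 without WT replicate 1 (limma adjusted p = 0.0033) and -0.47 without R6/1 replicate 7 (limma adjusted p = 0.043). The authors' deposited table gives -0.44 with an adjusted p of 0.033. Plxna2, Plxna3, Plxnb2 and Plxnb3 were not called, with log2 fold changes of -0.04, 0.09, -0.05 and 0.20.

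**Figure D5:**
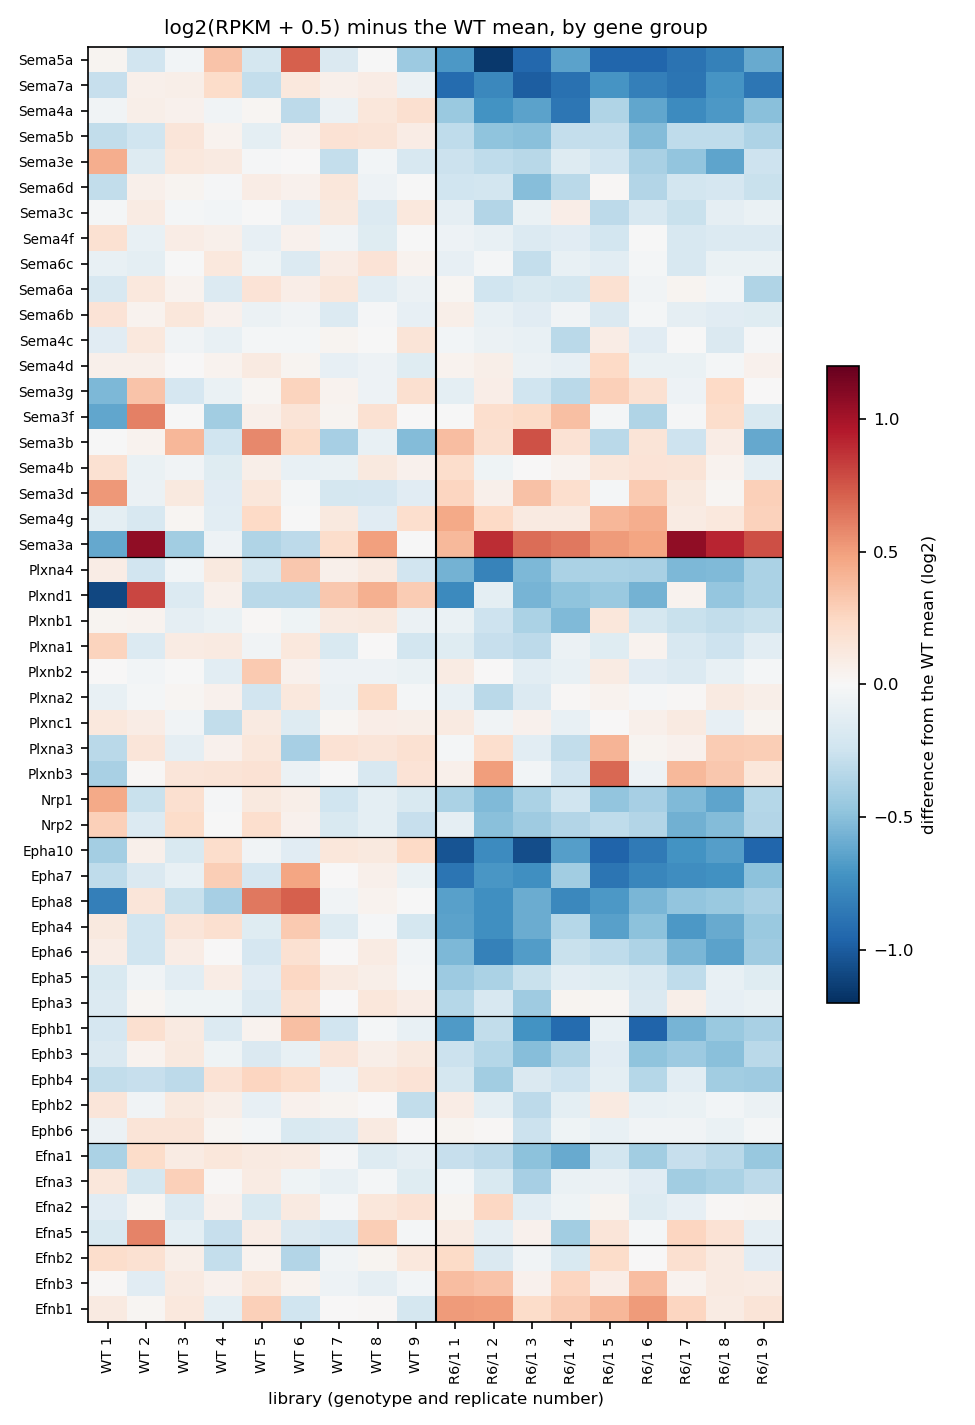
Log2(RPKM + 0.5) minus the mean of the 9 WT libraries for the 50 guidance genes tested (rows, by family, divided by lines) in the 18 libraries (columns, WT left and R6/1 right of the black line). Blue R6/1 columns mark the lower genes, such as Sema7a and Epha10, and single libraries stand out, such as WT replicate 1 (low in Plxnd1, Sema3a and Epha8) and WT replicate 2 (high in the first 2).

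In WT hippocampus the guidance genes spanned from 85.4 ± 12.01 RPKM (Epha4) to 0.17 ± 0.04 RPKM (Epha1, SD, n = 9 each). Epha4 was followed by Efnb3 (48.4 RPKM), Sema7a (44.9 RPKM), Sema6b (37.9 RPKM) and Efna3 (25.8 RPKM). Neighbours in this order were set apart by more than the sum of their SDs in 3 places, between Epha4 and Efnb3, between Sema6b and Efna3 and between Sema4a and Sema3c. Elsewhere neighbours did not differ beyond their spread. The largest spread within WT was that of Sema3a (highest library 5.88 times the lowest), Epha8 (5.28 times) and Plxnd1 (4.27 times), and in R6/1 these ratios were 1.82, 1.64 and 1.86.

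Genes that work beside these ligands and receptors were read from lists chosen with earlier results of these data known. Of 33 genes of semaphorin signalling, 9 were higher (27.3%) and 6 lower (18.2%), with a median log2 fold change of 0.05. These shares are near the 24.8% and 23.5% over all genes tested, so the counts say nothing particular about this list, and its 4 largest changes are given as single genes. They were in Mical2, an actin-oxidising enzyme (-0.69, limma adjusted p = 3.69e-10), Rras, a GTPase that plexins inactivate (-0.55, 4.76e-06), Dpysl3, a collapsin response mediator (0.47, 1.12e-08), and Farp2, a Rac exchange factor (-0.38, 2.74e-04). The list of Eph and ephrin signalling shares Rhoa, Rac1, Rock1, Rock2, Fyn and Cdk5 with the semaphorin list. Of its 27 genes, 3 were higher (11.1%) and 13 lower (48.1%), with a median of -0.15. These included the spine exchange factor Kalrn (-0.86, limma adjusted p = 8.48e-09), the EphA4 effector Chn1 (-0.71, 1.24e-09), the Rap regulator Sipa1l1 (-0.54, 6.84e-10) and the exchange factor Vav3 (-0.46, 6.51e-04).

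Another list covered the netrin, slit and RGM systems, other guidance cues. Of 21 genes, 20 were tested, 3 were higher (15.0%) and 6 lower (30.0%), with a median of -0.08. With 45.0% called against 48.3% over all genes tested, this list had no more calls in total than the background. By direction, the background shares were 24.8% higher and 23.5% lower. Its 4 largest changes were in Robo3 (-0.91, limma adjusted p = 1.39e-04), a Robo family member, Robo1 (-0.38, 0.0013), a slit receptor, and the netrin receptors Unc5b (-0.67, 4.43e-05) and Unc5c (-0.39, 3.50e-04). Unc5c did not overlap between genotypes (7.18 to 11.7 RPKM in WT and 5.36 to 7.14 RPKM in R6/1), and the other 3 did.

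Markers of several hippocampal cell types moved with the lower guidance genes, in larger shares than the 23.5% of all genes tested that were called lower. All 7 dentate granule markers were lower (median -0.76), and their summed level was 99.8 to 140 RPKM in WT and 62.3 to 75.8 RPKM in R6/1. All 6 markers of CA2 and CA3 pyramidal cells were lower (median -1.01, sums 127 to 190 and 64.3 to 81.7 RPKM), and 5 of 6 of CA1 pyramidal cells (median -0.38, sums 164 to 231 and 124 to 141 RPKM). Lower calls also covered 6 of 7 inhibitory neuron markers (sums 358 to 436 and 218 to 284 RPKM), 6 of 6 astrocyte markers (491 to 671 and 363 to 539 RPKM) and 4 of 6 oligodendrocyte markers (963 to 1231 and 588 to 1020 RPKM).

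Other cell types had smaller shares of their markers called. Lower calls were made in 3 of 6 microglia markers (50.0%), and in 0 of 6 choroid plexus and 0 of 3 immature neuron markers tested. Lower calls also covered 1 of 3 oligodendrocyte precursor (33.3%), 1 of 5 endothelial (20.0%) and 1 of 5 meningeal fibroblast markers (20.0%). Shares of 33.3% and 20.0% are near the 23.5% of lower calls over all genes tested. Those counts thus say nothing particular about these cell types. No marker of any list was called higher. Choroid plexus markers varied so widely between libraries (Ttr 0.77 ± 0.91, log2 fold change and SE) that a shift in them could not be judged. The part of these cell types in the guidance gene changes was not tested.

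Lamin B1 domains, the long stretches of chromatin at the nuclear lamina, were then set beside the genes. Of the 53 guidance genes, 13 had their start in a WT domain (24.5%, exact 95% interval 13.8% to 38.3%), against 20.0% of 20333 annotated genes. Of the 50 tested guidance genes it was 12, against 13.0% of the 12828 tested genes matched to mm9. In R6/1 the count was 10 of 53 (18.9%, interval 9.44% to 32.0%), against 15.7% of annotated genes. Of the 50 tested guidance genes it was 9, against 7.99% of tested genes. The WT list holds 145 domains and the R6/1 list 166, each without replicates, so no difference between genotypes was tested. Intervals cover counting over genes only, and neighbouring genes in 1 domain are not independent.

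The 10 genes in a domain of both genotypes are Epha1, Epha3, Epha5, Epha6, Epha7, Ephb6, Sema3a, Sema3c, Sema3d and Sema3e. Several share a domain. Sema3d (chr5:12383166-12588943), Sema3a (chr5:13125593-13602565) and Sema3e (chr5:14025276-14256689) lie in a domain of 9.51 Mb in WT and 9.36 Mb in R6/1, and Sema3c (chr5:17080099-17236086) lies in the next one. Epha3 and Epha6 (chr16:59653309-60605357) share a domain of 19.1 Mb in WT and 18.1 Mb in R6/1. Epha7 (chr4:28740281-28894649) and Epha5 (chr5:84486816-84846407) lie in others of 19.3 and 10.7 Mb in WT.

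The neighbours on chromosome 5 did not change alike. Sema3a was higher, Sema3e and Sema3c were lower and Sema3d was not called, although Sema3a, Sema3d and Sema3e start in the same domain. Of the 9 tested guidance genes in a domain of both genotypes, 1 was higher and 5 lower (median -0.16). Of the 38 in no domain of either list, 2 were higher and 19 lower (median -0.15). Among all genes tested, 24.8% were higher and 23.5% lower, and these shares were not computed by domain class. The other 3 guidance genes, Efnb1 (chrX:96331469-96344330), Plxna3 and Plxnb3, are on chromosome X and start in a WT domain of 67.6 Mb. No R6/1 domain holds their starts, but R6/1 domains do lie within the span of that WT domain. The nearest R6/1 domain is 982 kb from the start of Efnb1, 3684 kb from that of Plxna3 and 3662 kb from that of Plxnb3. Efnb1 was higher, and Plxna3 and Plxnb3 were not called.

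The other 6 genes that did not overlap between genotypes start outside the domains of both lists. Epha4 (chr1:77363760-77511663) starts 5584 kb from the nearest WT domain, Epha10 (chr4:124558143-124595044) 10635 kb, Sema7a (chr9:57787920-57810671) 17791 kb, Sema5a (chr15:32174568-32626096) 2057 kb, Sema4a (chr3:88239881-88265104) 2274 kb and Plxna4 (chr6:32094565-32538192) 4492 kb. Tested guidance genes were long for this table, with a median gene length of 39.9 kb against 23.6 kb over the tested genes. The 12 tested genes in a WT domain had a median of 181 kb and the 38 outside 32.9 kb. Coordinates are on mm9 with GENCODE annotation.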

How the data were processed

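The authors deposited RPKM per gene symbol in each of 18 libraries and a table of their own comparison, which holds per the file headers a mean normalized count (a signal), the log2 fold change and its error, the Wald score and raw and adjusted p-values. TopHat, DESeq2 and the build mm9 are named for the RNA-seq, and Bowtie and mm9 for the ChIP-seq, per the submitters' processing notes. The counter, its strand setting and the annotation are not given in the sources used here. The deposited domain lists give 1 score per domain and name the EDD caller in their file names, and how replicates were combined is not given in the sources used here. Groups follow the genotype that the labels give. ATAC-seq and ChIP reads were not analysed here.

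Reads per library were recovered from the steps of the RPKM values (99.89% to 99.92% of values whole within 0.05 of a read), which shows a scaling by size factors. Limma 3.58.1 in R 4.3.3 (lmFit, eBayes with a mean-variance trend, two-sided) was fitted to log2(RPKM + 0.5) of all genes averaging 0.5 RPKM or more, with Benjamini-Hochberg adjustment over all of them, and was tested on simulated data. A pseudocount understates the change of scarce genes. As an alternative chosen after seeing the data, limma's voom was run on the recovered reads and called 7700 genes. Values of each library are named for all genes without overlap, the 6 largest called changes in each direction and the most abundant gene of each family, and each called gene is named. The 4 genes with the largest change are named for each signalling list. The members, lists and tests were chosen with earlier results of these data known.

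Gene positions came from GENCODE on NCBIM37 (53 of 53 symbols matched) and start regions from RefSeq. The alternatives tried were other pseudocounts, filters and scalings, a replicate block, covariates, library weights, leaving out each library, other domain definitions and, chosen after seeing the data, leaving out the 7 libraries highest in Ttr. The number of sample columns left unused was 0.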

Additional observations from a re-analysis of the deposited data

Results flagged for a closer look

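In 8 of 106 groups of 9 libraries (each guidance gene in each genotype), the highest or lowest library lay apart under Dixon's test at 95%, which divides its gap to the nearest other library by the whole range. Chance would pass about 1 in 20 groups, here 5.3. WT replicate 1 accounted for 3 of the 8: it was the highest for Sema3d (3.06 RPKM, next 2.23) and Sema3e (18.1 RPKM, next 14.5) and the lowest for Sema6d (13.2 RPKM, next 15.6). Sema3d was called higher without it, and Sema3e and Sema6d remained called. WT replicate 5 was the highest for Plxnb2 (15.0 RPKM, next 12.4). R6/1 replicate 2 was the highest for Efna2 (3.48 RPKM, next 2.94) and the lowest for Plxna4 (13.0 RPKM, next 15.4), whose log2 fold change without it was -0.47. R6/1 replicate 3 was the lowest for Ephb6 (18.0 RPKM, next 20.3), and R6/1 replicate 5 was the highest for Sema4d (15.7 RPKM, next 13.9). Efna2, Ephb6, Plxnb2 and Sema4d were not called with or without the library.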

How the results depend on the processing

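Over 33 alternatives to the fit of all libraries, the authors' deposited table included, 3 guidance genes (Efnb1, Efnb3 and Sema4g) were higher and 19 lower in each one that tested them. The other calls (Sema3a, Efna3, Plxna1, Plxnb1, Sema3c and Sema4f) were lost in at least 1. No called gene changed direction. Pseudocounts of 0.1 and 1, median centring, no filter, a fit without trend and Xist as a covariate gave 4 higher and 24 lower. Library weights gave 5 and 25, a choroid plexus covariate 4 and 25, quantile normalization 5 and 23, equal sums of RPKM 5 and 21, voom on recovered reads 6 and 20, and a filter at 2 RPKM, which tests 45 of the genes, 3 and 22. Leaving out 1 library gave 4 to 5 higher and 22 to 24 lower, and 8 to 10 genes lower without overlap. Under equal sums of RPKM, 6 genes were lower without overlap. With the replicate block, 4 were higher and 24 lower, with Sema3c lost and Plxnd1 gained. Same-numbered libraries deviated together with correlations from -0.136 to 0.212, so the numbers were not taken to pair them. Counting any part of the gene left 13 and 10 genes in WT and R6/1 domains. Genes with few reads, such as Epha1, could not be judged at this depth.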
